A study of Rattus norvegicus with 8 samples.

Results

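The genes described here serve the concentration of urine, the transport of urea and the build-up of organic osmolytes in the kidney, and their levels were compared between kidneys of Si deplete and Si replete rats. The members are the vasopressin receptors Avpr1a and Avpr2, the urea transporter Slc14a2, the osmolyte carriers Slc5a3 and Slc6a12, the aldose reductase Akr1b1 and the transcription factor Nfat5. Every probe set whose only gene symbol in the platform annotation is one of these 7 was kept, whatever its level. This gave 14 of the 31042 probe sets tested, for 6 of the 14217 genes measured. No probe set with the symbol Slc6a12 is in the annotation used, so this gene was not analysed here. Slc14a2 had 5 probe sets, Avpr2, Slc5a3, Akr1b1 and Nfat5 had 2 each and Avpr1a had 1.

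All rats were female and Sprague-Dawley, aged 29 weeks, and had eaten a formulated low-Si feed for 26 weeks. Si deplete rats drank water low in Si and had 0.17 mg Si a day for each kg of body weight, whereas Si replete rats drank water with added orthosilicic acid and had 4.1 mg. Each array carried RNA from 1 rat's left kidney, ground whole, with 4 arrays per diet, so that every level averages cortex, medulla and papilla. In such material, fewer cells of a type and less RNA per cell cannot be told apart. Levels are on the log2 scale as deposited, after gcRMA, the authors' background correction, normalization and summary of the probes. A level says nothing of how one probe set compares with another, since probes differ in brightness.

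Markers of the labelled tissue were present. Markers of the proximal tubule, the thick ascending limb and the principal cells of the collecting duct had mean levels over each list of 11.07 to 11.91, 11.44 to 11.88 and 9.82 to 10.30 in the 8 kidneys, while those of the adrenal gland and fat lay at 2.61 to 3.17. Of all probe sets, 51.3% averaged less than 4, close to the floor of gcRMA levels. Si deplete replicate 1 stood apart on the first principal component of all probe sets, at 64.0 against -25.9 to 19.2 in the other 7 arrays, and many values are therefore also given without it. By the study's methods, rats were killed singly and each group gave 1 rat on a given day; which of these kidneys shared a day was not known here. The p-values measure the spread between these 8 kidneys.

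Water leaves the collecting duct when vasopressin, the antidiuretic hormone, binds the V2 receptor (Avpr2) on principal cells, which raises cyclic AMP and brings aquaporin water channels and UT-A urea transporters (Slc14a2) to work in the membrane. Urea carried by UT-A and the salt moved by the thick ascending limb make the medulla hypertonic. Medullary cells keep their volume by gathering sorbitol, made from glucose by aldose reductase (Akr1b1), myo-inositol, taken up by Slc5a3, and betaine, taken up by Slc6a12. The transcription factor Nfat5, also called TonEBP, is known to turn on these genes under hypertonic stress. The V1a receptor (Avpr1a) signals through calcium and is best known in vascular smooth muscle.

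Slc14a2 is the member with the largest measured difference, and the sequences around its annotated starts are shown to place the gene, because it is transcribed from more than one promoter. RefSeq gives 2 starts on the minus strand of chromosome 18 in assembly GRCr8, 392962 bases apart. Each line gives the 250 bases before a start in lower case and the first 50 from the start in capitals.
Slc14a2, upstream start, chr18:74314497-74314796: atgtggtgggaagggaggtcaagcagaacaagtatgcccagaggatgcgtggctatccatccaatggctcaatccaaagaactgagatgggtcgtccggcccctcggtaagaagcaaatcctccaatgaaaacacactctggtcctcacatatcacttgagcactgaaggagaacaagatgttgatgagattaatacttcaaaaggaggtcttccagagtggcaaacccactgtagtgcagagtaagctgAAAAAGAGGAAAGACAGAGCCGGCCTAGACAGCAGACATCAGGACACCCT
Slc14a2, downstream start, chr18:73921535-73921834: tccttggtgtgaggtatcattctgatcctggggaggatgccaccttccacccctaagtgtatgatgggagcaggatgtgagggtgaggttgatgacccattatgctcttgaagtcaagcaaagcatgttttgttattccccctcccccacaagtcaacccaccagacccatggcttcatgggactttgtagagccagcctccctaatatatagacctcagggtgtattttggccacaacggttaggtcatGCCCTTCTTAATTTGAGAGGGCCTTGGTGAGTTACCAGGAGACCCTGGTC

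The core letters TGGAAA, with which the sites bound by Nfat5 begin, were searched on both strands (TTTCCA on the other). They were in neither Slc14a2 window, nor in the windows of Avpr1a, Avpr2, Slc5a3 and Slc6a12, so 0 of 6 windows of 5 members held them, against 22.7% of 33469 windows of the same 300 bases. This says only that these letters are absent from these stretches. The table used has no window for Akr1b1 and Nfat5. Which start a probe set of Slc14a2 reports on was not determined.

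Across the members, no probe set passed at an adjusted p under 0.1 from limma over all 31042 probe sets, where 0.151% passed. Their adjusted p-values were 0.276 to 0.996. In none of the 14 did the 4 kidneys of one diet lie wholly above or below the 4 of the other, whereas 9.37% of all probe sets were separated in this way. At an unadjusted p under 0.05, 2 member probe sets were higher in Si deplete kidneys, both of Slc14a2, and 0 were lower, against 7.81% and 7.14% of all probe sets. The median log2 fold change of the 14, taken as Si deplete minus Si replete mean, was 0.0043 and that of all probe sets -0.01, and 8 of the 14 were above 0 and 6 below. The median size of the differences, whatever their sign, was 0.12 in both the members and all probe sets. A mean level of at least 4 was reached by 8 of the 14, with at least 1 for each of the 6 genes. Slc14a2 1398312_s_at reached it, at 4.02, only through the Si deplete kidneys.

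**Figure D1:**
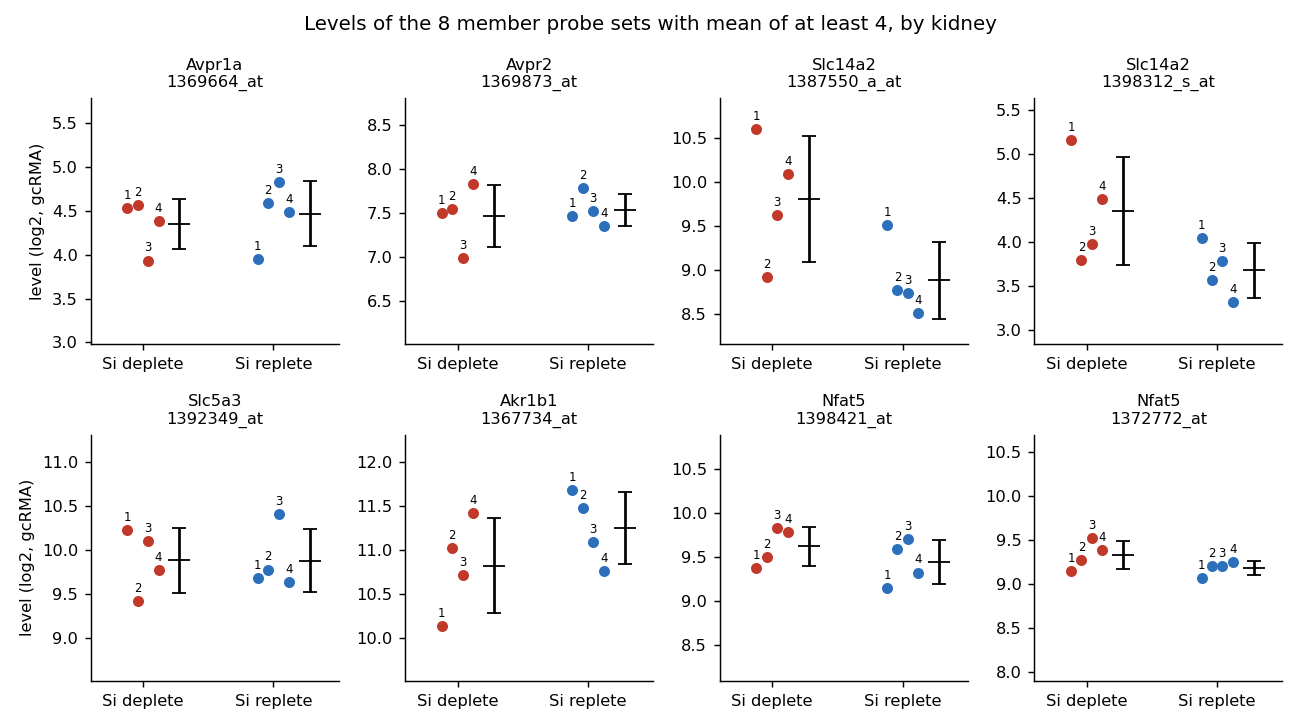
Log2 gcRMA levels of the 8 member probe sets with a mean of at least 4, for each kidney by diet; numbers are replicates, and each bar gives a diet's mean with its SD over 4 kidneys. All panels span the same range of the log2 scale, and the diets overlap in each one, with the widest gap between means in the brighter Slc14a2 probe set (9.81 against 8.88).

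Slc14a2 had the highest levels in Si deplete kidneys relative to Si replete ones. On its brightest probe set, 1387550_a_at, the log2 levels of replicates 1 to 4 were 10.60, 8.91, 9.62 and 10.09 in the Si deplete diet and 9.51, 8.77, 8.73 and 8.51 in the Si replete diet. Of the Si deplete kidneys, 3 lay above all Si replete kidneys, and replicate 2 lay among them. The diet means were 9.81 ± 0.72 (SD, n = 4) against 8.88 ± 0.44 (SD, n = 4). They were apart by 0.93 on the log2 scale with a standard error of 0.35, which is 1.90-fold with a 95% interval of 1.11 to 3.26. The difference exceeded the SD of either diet, but it missed the threshold (limma, unadjusted p = 0.025, adjusted p = 0.276). The exact permutation test gave a 2-sided p = 0.0571, where 0.0286 is the smallest that 4 against 4 allow.

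A second probe set of Slc14a2, 1398312_s_at, gave a difference of the same direction at a much lower reading. Its log2 levels were 5.16, 3.79, 3.98 and 4.49 in Si deplete and 4.05, 3.56, 3.79 and 3.31 in Si replete replicates 1 to 4. Here 2 Si deplete kidneys, replicates 1 and 4, lay above all Si replete ones, and the others overlapped with them. The diet means, 4.36 and 3.68, were 0.68 apart with a standard error of 0.29. This is 1.60-fold with a 95% interval of 1.02 to 2.50 (limma, adjusted p = 0.318). The mean over all kidneys, 4.02, reached 4 only through the Si deplete kidneys, and the Si replete mean was close to the floor. The 2 probe sets ordered the kidneys nearly alike across the 8 arrays, with Pearson's r = 0.96 and Spearman's rho = 0.95. Exact permutation gave p = 0.000174 and p = 0.00114, or 0.000347 and 0.00228 adjusted over 2 such relations. Only pairs with both means of at least 4 were tested. This pair qualified only through the Si deplete kidneys, so these p-values are given as a description. Pearson's r was 0.93 with the mean of each diet subtracted, and 0.88 without the 2 kidneys farthest from the median. The 2 probe sets read the same RNA on the same arrays, so they are not separate evidence of a diet difference. Their diet differences did not differ from each other by more than the spread between kidneys, by 0.25 on the log2 scale (exact permutation test, 2-sided p = 0.2).

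The other 3 probe sets of Slc14a2 read near the floor, at levels of 1.18 to 2.79 over all 8 kidneys. Their log2 fold changes were 0.0043, -0.07 and -0.13, with 95% intervals that lay between -0.36 and 0.19. So near the floor they can show little difference between diets. With these 3 included, the mean over the gene's 5 probe sets differed between diets by 0.28 (limma, adjusted p = 0.342).

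The size of the Slc14a2 difference turned on single kidneys. Without Si deplete replicate 1, which has the highest level of all, the log2 fold change of the brightest probe set was 0.66 (limma, adjusted p = 0.438), and that of the second was 0.41 (adjusted p = 0.476), over 1.5 times smaller than 0.68. Without Si deplete replicate 2 the values were 1.22 and 0.87 (adjusted p = 0.242 and 0.302). The direction held with every array left out, but an adjusted p under 0.1 was reached in none of these fits.

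**Figure D2:**
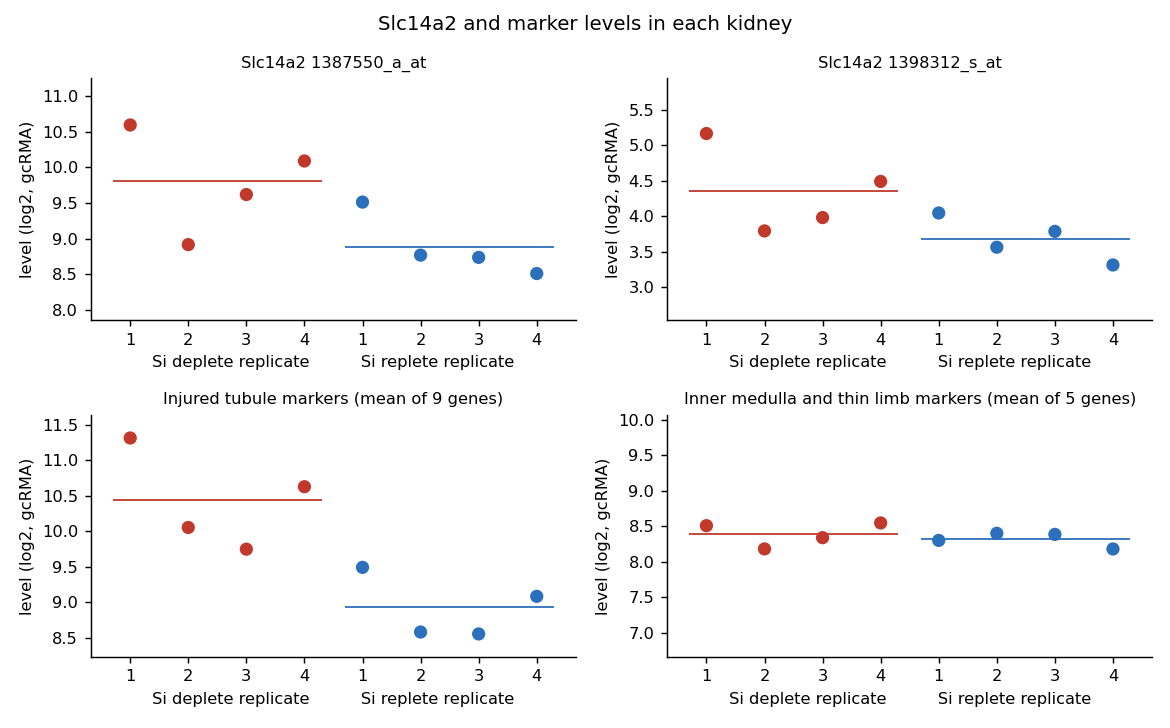
Log2 levels in each kidney of the Slc14a2 probe sets with a mean of at least 4, and mean log2 levels of the marker lists for injured tubules (9 genes) and for the inner medulla and thin limbs (5 genes), with lines at the mean of each diet. All panels span the same range. Si deplete replicates 1 and 4 are the highest of the 8 kidneys in all 4 panels. They are at 10.60 and 10.09 for the brightest Slc14a2 probe set and at 8.51 and 8.55 for the medullary list, whose diets overlap. Of the genes in the medullary list, only Cldn4 had both of these kidneys highest by itself. Si deplete replicate 2 lies above all Si replete kidneys for the injured tubule list only.

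Marker lists of injury and of some other cells also differed between diets, before adjustment. The mean level of 9 markers of injured tubules, among them Havcr1, Lcn2 and Spp1, was 11.31, 10.05, 9.75 and 10.63 in Si deplete and 9.49, 8.58, 8.56 and 9.08 in Si replete replicates 1 to 4. As with Slc14a2, Si deplete replicates 1 and 4 were the highest of the 8 kidneys, and replicate 1 was the highest of the Si replete kidneys. Other kidneys were ordered differently. Si deplete replicate 2, at 10.05, lay above all Si replete kidneys for these markers, but among them on the brightest Slc14a2 probe set (8.91). Si replete replicate 4 was the lowest of all on that probe set (8.51), but not for these markers (9.08). Of these 9 genes, 8 had an unadjusted p under 0.05 from limma, all higher in Si deplete kidneys, against 18.5% of all 14217 genes on their brightest probe sets, and 0 passed at an adjusted p under 0.1. Markers of the inner medulla and thin limbs, where UT-A transporters are found, had mean levels of 8.51, 8.18, 8.34 and 8.55 in replicates 1 to 4 of the Si deplete diet and 8.30, 8.40, 8.39 and 8.18 in those of the Si replete diet. Here too Si deplete replicates 4 and 1 were the highest. The diets overlapped, and the median log2 fold change was -0.05 over 5 of 6 genes measured. Of these genes, only Cldn4 had both of those kidneys highest by itself, at 9.32 and 10.22. Aqp1 was instead lowest in Si deplete replicate 1, at 11.455. Within that list Cldn4, a claudin of the collecting duct and thin limbs, differed by 0.80 with a standard error of 0.26 (limma, adjusted p = 0.228), or by 0.52 without Si deplete replicate 1. The other 4 lay between -0.23 and -0.03, with Bdkrb2 near the floor at a mean of 2.52. Fxyd4 is also in the list of principal cells. The mean of this list is therefore no measure of how much inner medulla a kidney sample held. At an unadjusted p under 0.05, 3 of 6 markers of macrophages and lymphocytes and 3 of 8 of fibroblasts and mural cells were higher in Si deplete kidneys, while 2 of 4 of podocytes and 2 of 3 of blood were lower. The median log2 fold changes of these lists were 0.73, 0.29, -0.38 and -0.42. Mean levels of macrophage and lymphocyte markers were 7.04 to 7.98 in Si deplete kidneys against 6.44 to 7.35, and those of fibroblasts and mural cells 7.40 to 8.49 against 7.19 to 7.72. For podocytes they were 8.09 to 8.85 against 8.69 to 9.17, and for blood 9.21 to 10.25 against 10.02 to 10.63, so that the diets overlapped in these 4 lists. Markers of principal cells, intercalated cells, the thick ascending limb and the proximal tubule had 0 of 7, 0 of 5, 0 of 5 and 0 of 8 at such a p. Their median log2 fold changes were -0.11, -0.14, -0.05 and -0.12. For the vasa recta and endothelium, 1 of 6 was higher. In all marker lists, 0 genes passed at an adjusted p under 0.1. The part of any of these lists in the Slc14a2 difference was not tested.

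The receptors of vasopressin had like levels in both diets. For Avpr2, the receptor behind the water-saving response, the brighter probe set read 7.50, 7.55, 6.99 and 7.83 in Si deplete and 7.47, 7.78, 7.52 and 7.35 in Si replete replicates 1 to 4. Both the lowest and the highest kidney were Si deplete, replicates 3 and 4. The log2 difference was -0.06 with a standard error of 0.17 (limma, adjusted p = 0.891), and its 95% interval, -0.45 to 0.32, allows a level from 0.73 to 1.25 times that of Si replete kidneys. It became 0.09 with Si deplete replicate 3 left out and 0.02 with Si replete replicate 2 left out. The other Avpr2 probe set read 1.63 to 2.37 in all kidneys, near the floor, where the diets differed by 0.09 with a standard error of 0.15.

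Avpr1a was measured by 1 probe set of low level. It read 4.53, 4.56, 3.93 and 4.38 in Si deplete and 3.95, 4.59, 4.83 and 4.48 in Si replete replicates 1 to 4, so that 1 kidney of each diet, Si deplete replicate 3 and Si replete replicate 1, lay below the rest. The log2 difference was -0.11 with a standard error of 0.20 (limma, adjusted p = 0.826) and a 95% interval of -0.57 to 0.34. It was 0.02 with Si deplete replicate 3 left out, 0.0070 with Si replete replicate 3 left out and -0.28 with Si replete replicate 1 left out.

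Among the members, the osmolyte gene Akr1b1 had the lowest levels in Si deplete relative to Si replete kidneys. Its brighter probe set read 10.13, 11.02, 10.71 and 11.41 in Si deplete and 11.68, 11.47, 11.09 and 10.76 in Si replete replicates 1 to 4. Si deplete replicates 1 and 3 lay below all Si replete kidneys, and the other 2 were among them. The means were 10.82 ± 0.54 (SD, n = 4) against 11.25 ± 0.41 (SD, n = 4). Their log2 difference was -0.43 with a standard error of 0.28, which is 0.74-fold with a 95% interval of 0.48 to 1.15. This is within the spread of the Si deplete kidneys (limma, adjusted p = 0.502; exact permutation test, 2-sided p = 0.2). It was -0.20 without Si deplete replicate 1, the kidney with the least Akr1b1 and the most Slc14a2, and it was -0.63 and -0.29 when Si deplete replicate 4 or Si replete replicate 1, respectively, was left out. The second Akr1b1 probe set read 2.62 to 3.05 in all kidneys and differed by -0.04 (standard error 0.11).

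Slc5a3, the sodium and myo-inositol cotransporter, had nearly the same mean in both diets. Its brighter probe set read 10.24, 9.42, 10.11 and 9.78 in Si deplete and 9.69, 9.78, 10.41 and 9.64 in Si replete replicates 1 to 4. The highest kidney was Si replete replicate 3 and the lowest was Si deplete replicate 2. The means were 9.88 ± 0.37 (SD, n = 4) against 9.88 ± 0.36 (SD, n = 4). Their log2 difference was 0.0042 with a standard error of 0.22 (limma, adjusted p = 0.996), and the 95% interval of -0.48 to 0.49 leaves room for a change in either direction. The dim probe set, at 2.25 to 2.65, differed by 0.13 (standard error 0.10, adjusted p = 0.565).

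Nfat5 was measured by 2 probe sets, both well above the floor. The first, 1398421_at, read 9.38, 9.50, 9.84 and 9.79 in Si deplete and 9.15, 9.59, 9.71 and 9.33 in Si replete replicates 1 to 4. The second, 1372772_at, read 9.15, 9.27, 9.52 and 9.38 in Si deplete and 9.07, 9.20, 9.20 and 9.24 in Si replete replicates 1 to 4. On the second, 3 Si deplete kidneys lay above all Si replete ones, and on the first 2 did. The log2 fold changes were 0.18 (standard error 0.15, adjusted p = 0.594 from limma) and 0.15 (standard error 0.10, adjusted p = 0.487), and upper limits of the 95% intervals were 0.52 and 0.36. The first was 0.09 without Si replete replicate 1 and 0.11 without Si deplete replicate 3. The second was 0.09 without Si deplete replicate 3 and 0.21 without Si deplete replicate 1 (limma, unadjusted p = 0.0444, adjusted p = 0.4). On both, Si deplete replicate 3 was the highest of the 8 kidneys and Si replete replicate 1 the lowest. The probe sets had Pearson's r = 0.80 and Spearman's rho = 0.74 over the 8 arrays (exact permutation p = 0.0131 and p = 0.0458, the same after adjustment over 2 relations), but r = 0.54 without the 2 kidneys farthest from the median, so the relation rests in part on those.

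**Figure D3:**
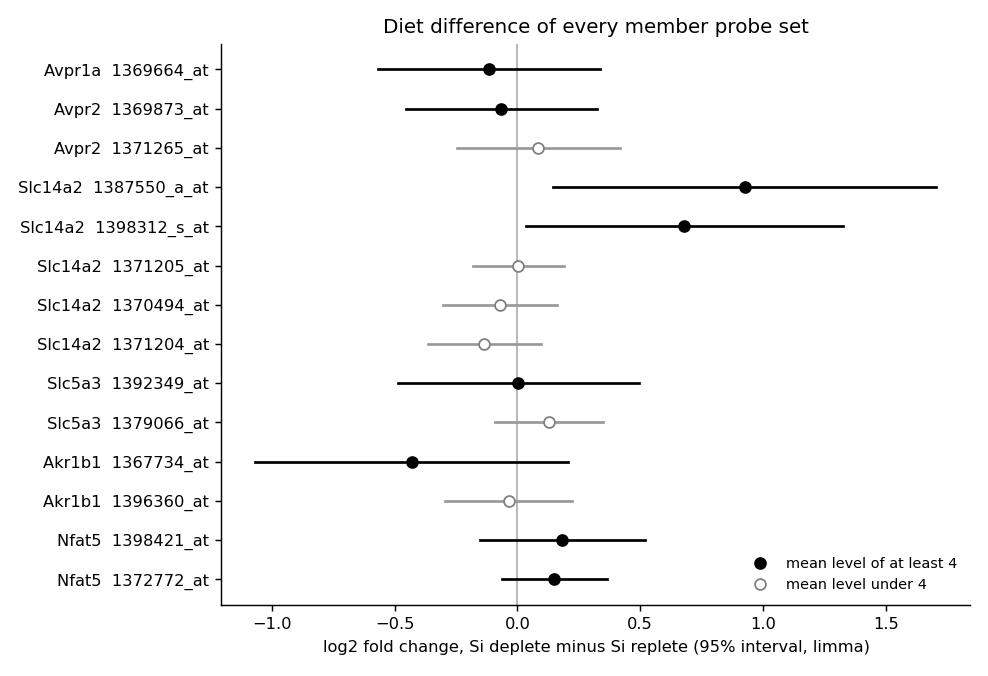
Difference in log2 level (Si deplete minus Si replete mean) with its 95% interval from limma for each of the 14 member probe sets, with 4 arrays per diet; open points have a mean level under 4. Only the intervals of 2 Slc14a2 probe sets, at 0.93 and 0.68, do not reach 0, and neither passed after adjustment.

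Correlations of Nfat5 with the genes it is known to turn on were low or moderate in these kidneys. Over the 8 arrays, Pearson's r of the brighter Nfat5 probe set was -0.02 with Akr1b1, 0.37 with Slc5a3 and 0.05 with Slc14a2, and it was -0.34 between Slc14a2 and Akr1b1 and -0.43 between Slc5a3 and Akr1b1. With the mean of each diet subtracted, these became 0.20, 0.41, -0.33, -0.05 and -0.48. These are descriptions over 8 kidneys that share their processing, taken over the brightest probe set of each gene. The genes whose levels ran most like those of Slc14a2 were Pfkp, the platelet form of phosphofructokinase, Acvrl1, a receptor of the TGF-beta family, and Midn, with r = 0.97, 0.96 and 0.96. After the same subtraction, these were 0.94, 0.93 and 0.93. For Nfat5 they were Nos3, the endothelial nitric oxide synthase, Rdx and Xiap, for Akr1b1 Erp44, Tmem38b and Ero1b, for Slc5a3 Ppp3cc, Inpp1 and Tiam1, for Avpr2 Tm9sf4, Tax1bp1 and Kif2a, and for Avpr1a Ubn2, Ttc1 and Mphosph10, with r from 0.91 to 0.98. They are the highest of 12232 probe sets and are given as a description.

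The wider pathway gave 0 genes at an adjusted p under 0.1 in any of 7 lists, each gene being read by its brightest probe set. At an unadjusted p under 0.05 from limma, the lists had 1 to 5 genes each. In the vasopressin cascade of the collecting duct, 1 of 15 genes did, or 6.67% against 18.5% of all genes, and the median log2 fold change was -0.04. This gene was Prkar1a, a regulatory subunit of the cyclic AMP-dependent kinase, at 0.19 (standard error 0.08), whose diets did not overlap. Next came Pde4d, which breaks down cyclic AMP, at -0.44, the adenylyl cyclase Adcy6 at 0.15 and the kinase subunit Prkar2a at -0.20. Aqp2, the water channel on which Avpr2 acts, is named outside the rule for its role. It read 10.97, 10.64, 10.79 and 11.45 in Si deplete and 11.37, 11.37, 11.15 and 10.84 in Si replete replicates 1 to 4, and its diets differed by -0.22 with a standard error of 0.19 (limma, adjusted p = 0.61).

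Of 9 measured genes that oppose vasopressin, 1 had an unadjusted p under 0.05, or 11.1% against 18.5% of all genes. Ptger3, the prostaglandin receptor that lowers cyclic AMP in the thick ascending limb and collecting duct, differed by 0.59 with a standard error of 0.22 (limma, adjusted p = 0.28), and by 0.40 without Si deplete replicate 1. It read 11.12, 10.30, 10.26 and 10.59 in Si deplete and 10.47, 9.96, 9.77 and 9.72 in Si replete replicates 1 to 4, with the highest level of each diet in replicate 1, as for Slc14a2. The prostaglandin receptor Ptger1 (-0.23), the nucleotide receptor P2ry2 (0.28) and the phosphodiesterase Pde1a (-0.29) followed. In the ascending limb, 1 of 7 measured genes had such a p, or 14.3% against 18.5%. This was Cldn19, a claudin needed for magnesium and calcium reabsorption, which read 11.06, 9.65, 9.71 and 9.94 in Si deplete and 9.61, 9.01, 9.18 and 8.71 in Si replete replicates 1 to 4. Its diets did not overlap, and its log2 difference was 0.96 with a standard error of 0.31 (limma, adjusted p = 0.232), or 0.64 without Si deplete replicate 1. Cldn10, Bsnd and Umod, which encode a claudin, a chloride channel subunit and uromodulin, lay between -0.17 and -0.08.

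The genes that make or break down osmolytes had the largest share with an unadjusted p under 0.05 among the 7 lists, 5 of 13, or 38.5% against 18.5% of all genes. Of these, 2 were higher and 3 were lower in Si deplete kidneys. Gdpd5 and Gpcpd1, both phosphodiesterases that split the osmolyte glycerophosphocholine, differed in opposite directions, by 0.44 (standard error 0.12, adjusted p = 0.191 from limma) and -0.37 (standard error 0.13, adjusted p = 0.257). Gdpd5 was dim, with 3.82 to 4.19 in the Si deplete diet and 3.42 to 3.81 in the Si replete diet, without overlap. Cdo1 and Csad, enzymes on the route from cysteine to taurine, differed by -0.48 (standard error 0.19, adjusted p = 0.289) and -0.39 (standard error 0.15, adjusted p = 0.283). Chdh, which oxidizes choline toward betaine, differed by 0.35 (standard error 0.15, adjusted p = 0.329), and by 0.21 without Si replete replicate 2. The count varied with the kidney left out. It fell to 2 of 13, or 15.4% against 15.0% of all genes, without Si deplete replicate 1. Without Si deplete replicate 2 it was 2 again (15.4% against 16.1%). Without Si deplete replicate 3 or 4 it was 4 (30.8% against 20.8% and 20.1%). With Si replete replicates 1 to 4 left out in turn, it was 1, 3, 4 and 2. These are 7.69%, 23.1%, 30.8% and 15.4%, against 15.1%, 12.8%, 14.8% and 15.8% of all genes.

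**Figure D4:**
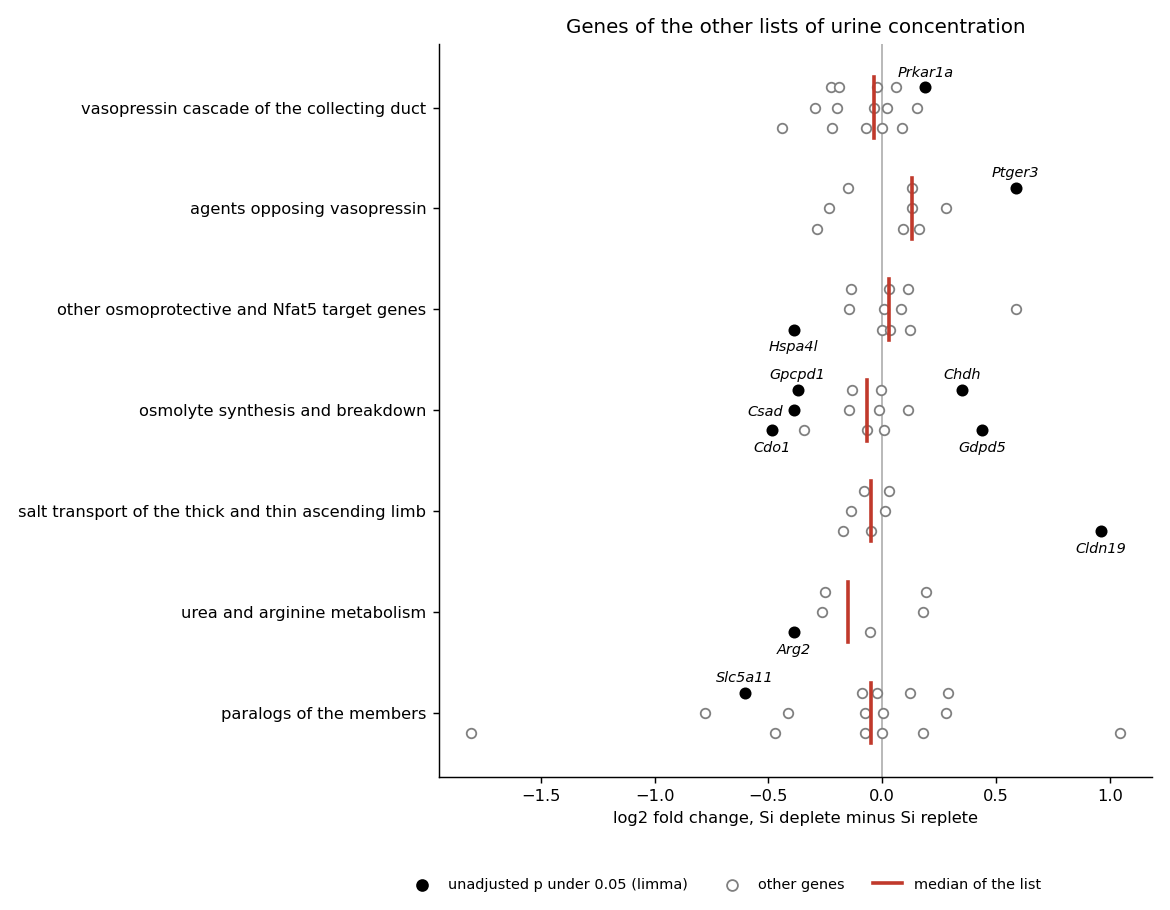
Difference in log2 level (Si deplete minus Si replete mean) of the genes in the other 7 lists of urine concentration, each gene drawn as 1 point, with 4 arrays for each diet; filled points have an unadjusted p under 0.05 from limma, and red lines are list medians. The medians lie between -0.15 and 0.13, and no gene passed after adjustment.

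Of 11 other osmoprotective genes measured, 1 had an unadjusted p under 0.05, or 9.09% against 18.5% of all genes. This was Hspa4l, a heat shock protein known to be induced by osmotic stress, at -0.39 (standard error 0.14, adjusted p = 0.273 from limma). Fxyd2, a subunit of the sodium pump, was at -0.14, the small heat shock protein Hspb1 at 0.59 (standard error 0.33) and the amino acid carrier Slc38a2 at 0.12. Of 6 genes of urea and arginine metabolism, 1 did, or 16.7%. This was Arg2, a mitochondrial arginase that releases urea, at -0.39 (standard error 0.15, adjusted p = 0.277), while Agmat, Arg1 and Asl were at -0.26, -0.25 and 0.19. Slc14a1, the urea transporter UT-B of the vasa recta and red cells, is also named outside the rule. It was at 0.18 (standard error 0.24, adjusted p = 0.766 from limma), with a level of 4.85 in Si deplete and 4.67 in Si replete kidneys. The difference between Slc14a1 and Slc14a2 was not tested.

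Of 16 paralogs of the members that were measured, 1 had an unadjusted p under 0.05, or 6.25% against 18.5% of all genes. Slc5a11, a myo-inositol carrier related to Slc5a3, read 8.42, 9.54, 9.63 and 9.42 in Si deplete and 9.92, 9.78, 9.94 and 9.79 in Si replete replicates 1 to 4. All Si deplete kidneys lay below all Si replete ones, with replicate 1 far below. The log2 difference was -0.60 with a standard error of 0.24 (limma, adjusted p = 0.291), and it was -0.33 without Si deplete replicate 1 (adjusted p = 0.227). Slc2a13, a proton-coupled myo-inositol carrier, was at -0.47 (standard error 0.22, limma, adjusted p = 0.362), and at -0.28 without Si deplete replicate 1. The calcineurin-dependent factor Nfatc2 was at 0.28. Akr1b7, an aldose reductase relative, was at -1.81 (standard error 0.88). Its level in 1 Si replete kidney, replicate 3, was 7.85 against 2.51 to 4.77 in the other 7. Without that kidney the Akr1b7 difference was -0.82. Akr1b1 and its relatives have similar sequences, and whether their probes also read each other was not tested.

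**Figure D5:**
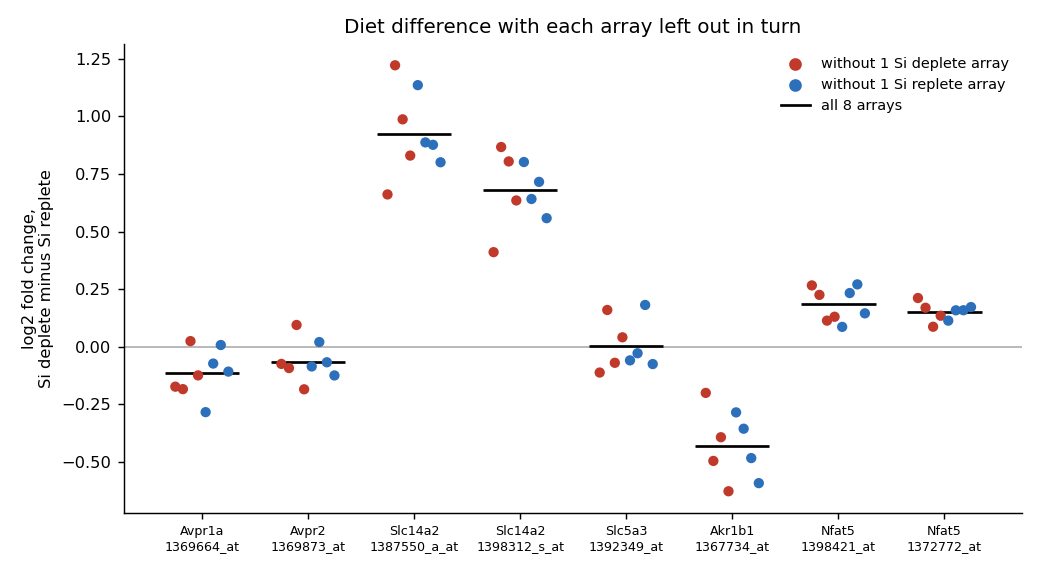
Difference in log2 level (Si deplete minus Si replete mean) of the 8 member probe sets with a mean of at least 4, recomputed with each of the 8 arrays left out; points are red for a Si deplete and blue for a Si replete array left out, and black lines use all 8 arrays. The brightest Slc14a2 probe set ranges from 0.66 to 1.22, and the Avpr1a, Avpr2 and Slc5a3 probe sets cross 0.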

How the data were processed

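Total RNA of 8 left kidneys was hybridized to Affymetrix Rat Genome arrays. For 31099 probe sets the authors deposited log2 levels, made by gcRMA and summarized with m-estimators; GCRMA 2.36.0 is the version in the submitters' processing notes. Whether probe sets were filtered first is not stated in the sources used here, and probe intensities were not analysed here.

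After 57 control probe sets were left out, 31042 were compared between diets with limma 3.58.1 in R 4.3.3 (lmFit and eBayes, no filter on level), with Benjamini-Hochberg adjustment over all of them and a threshold of 0.1, the false discovery rate limit in the study's methods. Single probe sets were also compared by exact permutation over 70 arrangements of the arrays. Symbols come from the platform annotation, and all 6 measured members matched RefSeq (GRCr8) by Entrez ID, with 0 symbols changed. Start windows are from RefSeq.

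Members and lists were chosen with earlier results of these data known. Named genes were all members, up to 4 genes of each list with the smallest p and the 3 genes most correlated with each member among those with a mean of at least 4. Genes of a count of 5 or fewer, Aqp2, Slc14a1 and Cldn4 were added after their values were seen. Values of the member probe sets, and their count of calls, were recomputed with each array left out, with the replicate number as a block, with array weights, with limma's trend or robust option, after quantile normalization or median centring of the arrays, without probe sets of mean under 4, on the mean over each gene's probe sets, and with 0.05 or a Storey q (lambda 0.5) as the threshold. Counts of the wider lists and values of their named genes were recomputed only with each array left out, an alternative chosen after seeing the data. The fit was tested on simulated data. The number of arrays limits the precision.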

Additional observations from a re-analysis of the deposited data

Results flagged for a closer look

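In 6 of 92 groups of 4 kidneys, taken over the members and the named genes of the wider pathway and markers, 1 kidney lay so far below the other 3 of its diet that its gap was past Dixon's 95% critical value, where chance gives about 1 in 20. None of these groups was of a member. In Si deplete kidneys, Slc5a11 read 8.42 in replicate 1 against 9.42 in the nearest kidney, Gdpd5 read 3.82 in replicate 4 against 4.16, and Nfatc2 read 3.60 in replicate 2 against 4.12. In Si replete kidneys, Chdh read 9.40 in replicate 2 against 9.93, Cldn4 read 8.40 in replicate 2 against 8.61, and Ptger1 read 3.22 in replicate 1 against 3.34.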

How the results depend on the processing

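No member probe set passed the threshold under any of the alternatives. The lowest adjusted p was 0.177, for the brightest Slc14a2 probe set with the replicate block (limma, log2 fold change 0.93, unadjusted p = 0.00522). Without the block its unadjusted p was 0.025 from limma. The block brought 0 higher and 0 lower member probe sets, as did the fit without it. Deviations from the diet means were then correlated between the diets. Among the arrays of the other diet, 4 of 8 arrays correlated best with the array of their own number. Deviations of arrays with the same number correlated at -0.088 to 0.09, which cannot show whether the numbers mark rats killed on the same day. Replicate numbers were therefore not read as pairs. Of 237 recomputed values, 215 kept their direction, and the 22 that changed it belonged to 6 probe sets with differences near 0. Many of the 215 could not change direction. The trend, robust, block, threshold and level-filter settings leave the log2 fold change as it is, so this count is no measure of stability. For Slc14a2 1371205_at the value was -0.000924 with array weights, -0.0529 with array medians subtracted and -0.0042 with quantile normalization. For Slc5a3 1392349_at it was -0.0354 with array weights and -0.0529 with medians subtracted, for Akr1b1 1396360_at 0.00967 with array weights, and for Avpr2 0.0104 as the mean of its probe sets. Subtracting medians moved the median of all probe sets from -0.01 to -0.07.

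With single arrays left out, log2 fold changes ranged from -0.28 to 0.0239 for Avpr1a, from -0.19 to 0.0941 for Avpr2 1369873_at and from -0.0305 to 0.22 for Avpr2 1371265_at. They ranged from -0.0333 to 0.0472 for Slc14a2 1371205_at, from -0.11 to 0.18 for Slc5a3 1392349_at and from -0.11 to 0.0462 for Akr1b1 1396360_at. The count of osmolyte synthesis and breakdown genes at an unadjusted p under 0.05, a check chosen after seeing the data, ranged from 1 to 4, against 5 with all arrays. The share of all genes at such a p ranged from 12.8% to 20.8% in these fits, against 18.5% with all arrays. The cause of these shifts was not tested. The 6 member probe sets with means under 4 lie near the floor and can show little difference.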
